A study of Mus musculus with 9 samples.

Results

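The families Slc4a, Slc9a, Slc12a and Slc26a hold the membrane carriers that move bicarbonate, protons, chloride and sulfate, and they were followed through RNA sequencing of whole mouse eyeballs. Members were all protein-coding genes whose symbol starts with 1 of these 4 prefixes, which gave 36 of 16212 protein-coding genes and of 22587 genes in all. Slc4a and Slc9a had 10 members each, Slc12a had 7 and Slc26a had 9, and all 36 passed the filter on low counts. Of these, 3 carry a family prefix without being transporters: Slc4a1ap encodes an adaptor protein, and Slc9a3r1 and Slc9a3r2 encode the scaffold proteins NHERF1 and NHERF2. The RefSeq gene table lists 42 such symbols, and Slc12a1, Slc12a3, Slc26a3, Slc26a5, Slc4a1 and Slc9a4 were not analysed here.

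There were 3 groups of 3 libraries from female wild-type BALB/C mice, an albino inbred strain. The T.chuii mice were injected intraperitoneally with scopolamine and given Tetraselmis chuii, a green microalga, at 300 mg/kg. DES mice received the same injections and water, and CON mice received water and no injection. Treatment began at 6 weeks of age and went on for 2 weeks, tissue was taken at postnatal day 56, and the study held 15 mice. Scopolamine, a muscarinic receptor blocker, serves to bring about dry eye, so DES against CON asks what the injections changed, and T.chuii against DES what the alga changed in injected mice. Because CON mice were not injected, the drug and the injection cannot be told apart. The labels do not tie each library to its own animal, so the p-values below measure only the spread between these libraries, which may be technical.

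Epithelia of the eye depend on these carriers. The corneal endothelium and the ciliary body move bicarbonate, sodium and chloride to keep the cornea clear and to make aqueous humour, and the pigment epithelium moves chloride out of the subretinal space. In neurons, the balance between the chloride loader NKCC1 and the extruder KCC2 sets the response to the transmitter GABA. Lacrimal glands, the source of most tear fluid, are not part of an eyeball.

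No member passed the test in any comparison. Libraries of 1 group differed widely, and in 3 libraries rich in corneal reads, 1 from each group, 5 of 36 members lay above the other 6 libraries and 7 below, close to the shares over all genes of 13.3% and 13.6%. The members together took 0.0723% to 0.122% of the reads of a library, and library totals were 39.1 to 64.6 M reads. Defining markers of cornea and retina were abundant in every library. The 13 corneal epithelial markers, such as the keratin gene Krt12, held 1.53% to 4.83% of reads in T.chuii, 2.79% to 5.45% in DES and 3.34% to 8.40% in CON. The 11 rod markers held 0.807% to 3.55% in T.chuii, 1.46% to 4.17% in DES and 1.44% to 3.23% in CON. No gene of these lists had fewer than 1341 reads in any library. In T.chuii 1, DES 1 and CON 2, the corneal epithelial markers together had 5.98, 3.72 and 5.83 times the reads of the rod markers, against 0.485 to 1.25 times in the other 6 libraries. These 3 libraries are called cornea-rich below. Genes of fast skeletal muscle, which surrounds the eyeball, were uneven too: 13 of them together held 1.49%, 0.770% and 0.350% in the T.chuii libraries, 0.782%, 0.250% and 0.133% in DES and 0.247%, 0.0745% and 0.164% in CON. Lens markers were near absent in 4 libraries, with 0.0239% to 0.0431% of reads in DES 2 and the 3 CON libraries and 1.24% to 6.22% in the other 5. Pigment epithelium was uneven as well, its 9 markers holding 0.408%, 0.289% and 0.408% in the T.chuii libraries, 0.107%, 0.246% and 0.402% in DES and 0.460%, 0.0756% and 0.339% in CON. For ciliary epithelium, the 5 markers held 0.0204% to 0.0249% in T.chuii, 0.0148% to 0.0196% in DES and 0.0127% to 0.0168% in CON. Most of these reads came from Cp, with group means of 201.8, 152.5 and 115.2 in counts scaled to library size. Best2 was highest in CON, at 21.8 against 16.7 in T.chuii and 16.6 in DES, and its groups overlapped. The means of Zic1, Zic2 and Opn3 did not keep the order of Cp either. The shares thus mainly follow Cp and do not rank the groups by ciliary epithelium. In whole eyeballs, fewer cells of a type and less RNA per cell cannot be told apart. Lens shares were higher in every T.chuii and DES library than in any CON library, and muscle shares were higher in every T.chuii library. In comparisons with CON, treatment and tissue content therefore cannot be told apart. Shares of 3 adipocyte markers were 0.00886% to 0.142% in T.chuii and 0.00131% to 0.00399% in DES, without overlap. Alga and tissue content thus cannot be told apart in T.chuii against DES either.

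Levels per transcript length are given as FPKM (fragments scaled to transcript length and to library size), and only these are compared between genes. Slc9a3r1 was the most abundant member, at 26.9 to 73.6 FPKM, followed by mean level by Slc4a11 at 10.6 to 90.3 FPKM, Slc9a3r2 at 9.39 to 24.8 FPKM and Slc12a2 at 9.14 to 28.6 FPKM. Next in this order came Slc4a5 at 7.33 to 13.8 FPKM, Slc4a1ap at 7.58 to 12.7 FPKM, Slc4a7 at 1.82 to 16.8 FPKM and Slc12a5 at 2.53 to 12.2 FPKM, whose ranges overlap one another. At the low end stood Slc26a9, Slc4a9, Slc26a1 and Slc9a3, an exchanger of gut and kidney brush borders, which had 0.0125 to 0.0480 FPKM. Summed over transporters alone, the 9 Slc4a genes gave 44.2 to 130.2 FPKM a library, the 7 Slc12a genes 27.6 to 48.0, the 9 Slc26a genes 17.9 to 25.0 and the 8 Slc9a genes 14.0 to 23.7.

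**Figure D1:**
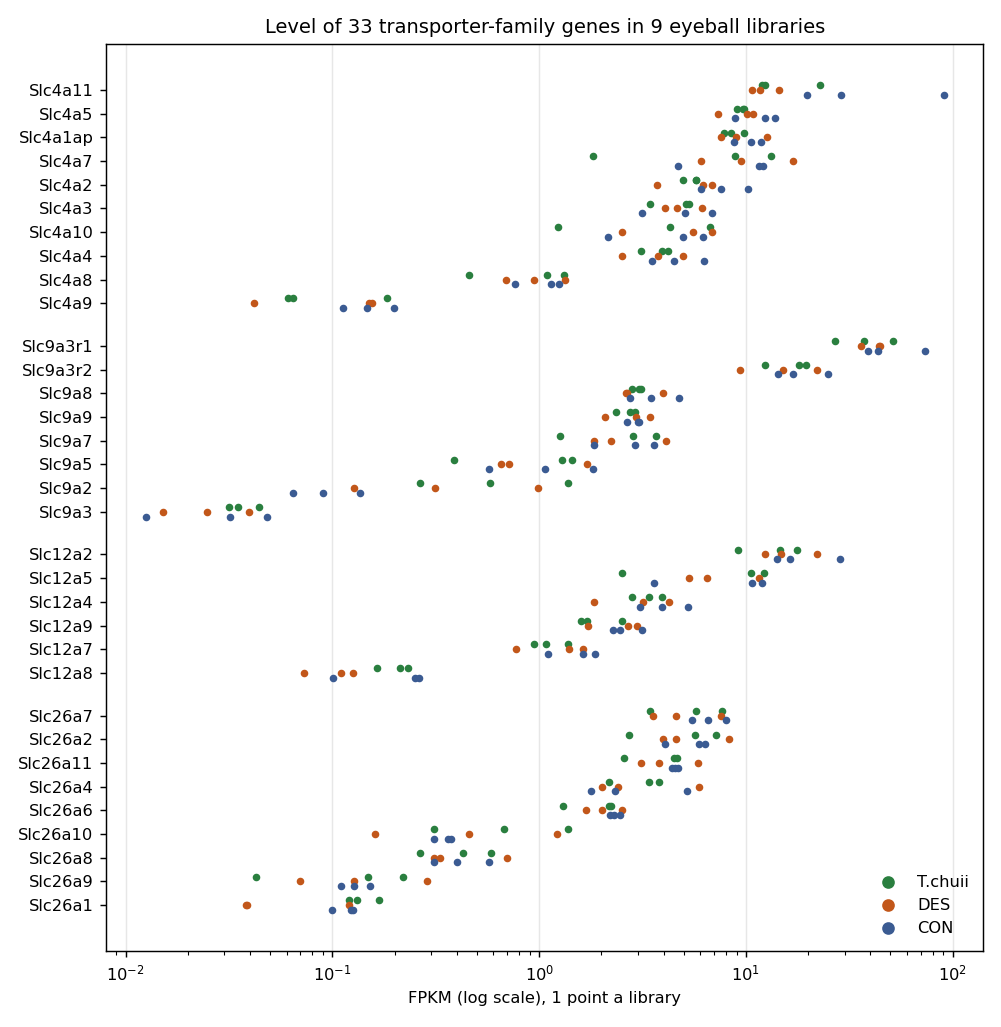
FPKM on a log scale of 33 of the 36 members, grouped by family and ordered by mean, with 1 point for each T.chuii (green), DES (orange) and CON (blue) library. Levels span 0.0125 FPKM for Slc9a3 to 90.3 FPKM for Slc4a11 in CON 2, and for most members the 3 colours overlap.

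All other levels are counts scaled to library size (CPM) and adjusted between libraries by trimmed means of M-values, listed for libraries 1, 2 and 3 of each group. Among chloride-bicarbonate exchangers, Slc4a2, which encodes the widely expressed AE2, had 29.1, 27.4 and 21.6 CPM in the T.chuii libraries, 29.3, 27.1 and 20.0 in DES and 31.5, 50.8 and 25.5 in CON. CON 2 was the highest library and the groups overlapped. Slc4a3, the exchanger AE3 of neurons and glia, had 16.4, 23.6 and 20.4 CPM in the T.chuii libraries, 20.9, 23.1 and 18.9 in DES and 25.9, 14.4 and 20.5 in CON, and its group means were 20.1 ± 3.61 in T.chuii, 20.9 ± 2.08 in DES and 20.3 ± 5.74 in CON (SD, n = 3 each). Slc4a9 stayed below 1 CPM in every library.

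Among sodium-bicarbonate cotransporters, Slc4a4 encodes NBCe1, used by corneal endothelium and glia, and had 34.4, 35.1 and 23.3 CPM in the T.chuii libraries, 41.5, 27.0 and 22.5 in DES and 32.4, 54.1 and 25.8 in CON. Slc4a5, the NBCe2 of choroid plexus and other epithelia, had 59.7, 53.1 and 49.0 CPM in the T.chuii libraries, 59.0, 51.5 and 44.2 in DES and 68.4, 73.2 and 45.0 in CON. Both were highest in CON 2, with groups that overlapped. Slc4a7 encodes NBCn1, whose loss in mice damages photoreceptors. It had 31.0, 77.3 and 102 CPM in the T.chuii libraries, 54.1, 121 and 86.8 in DES and 90.4, 41.7 and 90.0 in CON. The lowest library of each group was the cornea-rich one, and the other 6 libraries lay between 77.3 and 121 CPM. Slc4a10, a sodium-driven bicarbonate transporter of neurons, was also lowest in the cornea-rich library of each group. It had 7.88, 25.7 and 35.9 CPM in the T.chuii libraries, 15.4, 35.0 and 35.5 in DES and 32.6, 13.4 and 26.5 in CON. Slc4a8, its neuronal relative, ranged over 6.32 to 17.2 CPM. The adaptor gene Slc4a1ap was the steadiest member, 1.38-fold between its extremes, with 26.5, 33.8 and 36.5 CPM in the T.chuii libraries, 29.3, 36.1 and 27.3 in DES and 31.9, 29.9 and 33.0 in CON.

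Slc4a11 encodes a proton carrier of the corneal endothelium that is mutated in human congenital hereditary endothelial dystrophy, and it lies at chr2:130684107-130697519 (mm10). It had 82.3, 42.0 and 38.4 CPM in the T.chuii libraries, 40.5, 42.2 and 37.9 in DES and 60.0, 322 and 89.9 in CON. All 3 DES libraries lay below all 3 CON libraries, and CON 2 stood far above every other library. In the T.chuii group, libraries 2 and 3 were level with DES, and library 1 lay within the CON range. The log2 fold change was -1.57 ± 0.53 (SE) for DES against CON (limma-voom, unadjusted p = 0.0132, adjusted p = 1.0) and -1.23 ± 0.52 for T.chuii against CON (unadjusted p = 0.0402, adjusted p = 0.982). It was 0.34 ± 0.52 for T.chuii against DES. Without CON 2 the changes were -0.86 for DES and -0.52 for T.chuii against CON, and without the 3 cornea-rich libraries they were -0.87 for both, with adjusted p of 1.0 for DES and 0.471 for T.chuii.

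The 4 other listed endothelial markers did not share 1 pattern. The collagen gene Col8a2 had 85.8, 53.2 and 53.4 CPM in the T.chuii libraries, 52.7, 57.7 and 55.6 in DES and 98.1, 185 and 66.0 in CON, with all of DES below all of CON. The cadherin gene Cdh2, also known from neurons and lens, had 29.5, 52.3 and 50.8 CPM in the T.chuii libraries, 39.8, 39.2 and 35.1 in DES and 33.4, 31.0 and 33.6 in CON, with all of DES above all of CON. Alcam, an adhesion gene, had 83.0, 39.5 and 52.9 CPM in the T.chuii libraries, 73.4, 47.3 and 52.1 in DES and 61.2, 135 and 60.5 in CON, and the collagen gene Col8a1 had 105, 59.0 and 71.0 CPM in the T.chuii libraries, 49.7, 61.7 and 71.8 in DES and 89.9, 79.3 and 71.5 in CON. In both, DES and CON overlapped. Together the 4 held 0.0211% to 0.0276% of reads in T.chuii, 0.0199% to 0.0229% in DES and 0.0244% to 0.0385% in CON. These shares were lower in every DES library than in every CON library. The 8 keratocyte and scleral markers, genes of the fibrous coat of the eye, held 0.223% to 0.470% in T.chuii, 0.236% to 0.391% in DES and 0.429% to 0.523% in CON. The part of either tissue in the Slc4a11 difference was not tested.

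Of the sodium-proton exchangers at the cell surface, Slc9a3 had 0.233, 0.261 and 0.189 CPM in the T.chuii libraries, 0.120, 0.220 and 0.191 in DES and 0.190, 0.0866 and 0.269 in CON, values that rest on few reads. Slc9a5, an exchanger known mostly from brain, ranged over 2.03 to 8.45 CPM. Slc9a2, the NHE2 of epithelial surfaces, lies at chr1:40681712-40768885 and varied more between libraries than any other member, 23.9-fold. It had 5.62, 2.24 and 0.925 CPM in the T.chuii libraries, 3.85, 1.01 and 0.519 in DES and 0.474, 0.364 and 0.235 in CON. Every T.chuii and DES library lay above every CON library, while T.chuii and DES overlapped each other. The gap between DES and CON rested on DES 3 with 19 reads and CON 1 with 20, and it was lost on FPKM, at 0.127 in DES 3 and 0.136 in CON 1, and with library totals. The log2 fold change was 2.68 ± 0.82 for T.chuii against CON (limma-voom, unadjusted p = 0.00822, adjusted p = 0.982), 1.90 ± 0.85 for DES against CON (unadjusted p = 0.0479, adjusted p = 1.0) and 0.78 ± 0.76 for T.chuii against DES (unadjusted p = 0.325). Between these last groups, libraries with the same title number deviated together across genes, and libraries with different numbers were not compared in this way. The largest correlation (r = 0.558) was between T.chuii 1 and DES 1, both cornea-rich and high in muscle genes. The labels do not pair animals, so libraries of the same number are not known pairs. The replicate block on these groups alone, chosen after seeing the data, gave 0.79 ± 0.25 (limma-voom, unadjusted p = 0.0143, adjusted p = 0.564).

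Slc9a2 was high in the libraries that were high in muscle genes. The 3 libraries with the most Slc9a2, T.chuii 1, DES 1 and T.chuii 2, were also the 3 with the largest shares of fast muscle reads, 1.49%, 0.782% and 0.770%, against 0.0745% to 0.350% in the other 6. The order was not kept throughout, as DES 3 had more Slc9a2 than CON 1 with a smaller muscle share. Leaving out T.chuii 1 gave 2.04 for T.chuii against CON and 0.13 for T.chuii against DES, and leaving out the 3 cornea-rich libraries gave 2.09 for T.chuii and 1.19 for DES against CON. With FPKM and a pseudocount of 1, which shrinks changes of low genes, the change for T.chuii against CON was 0.62. The part of muscle in these values was not tested.

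**Figure D2:**
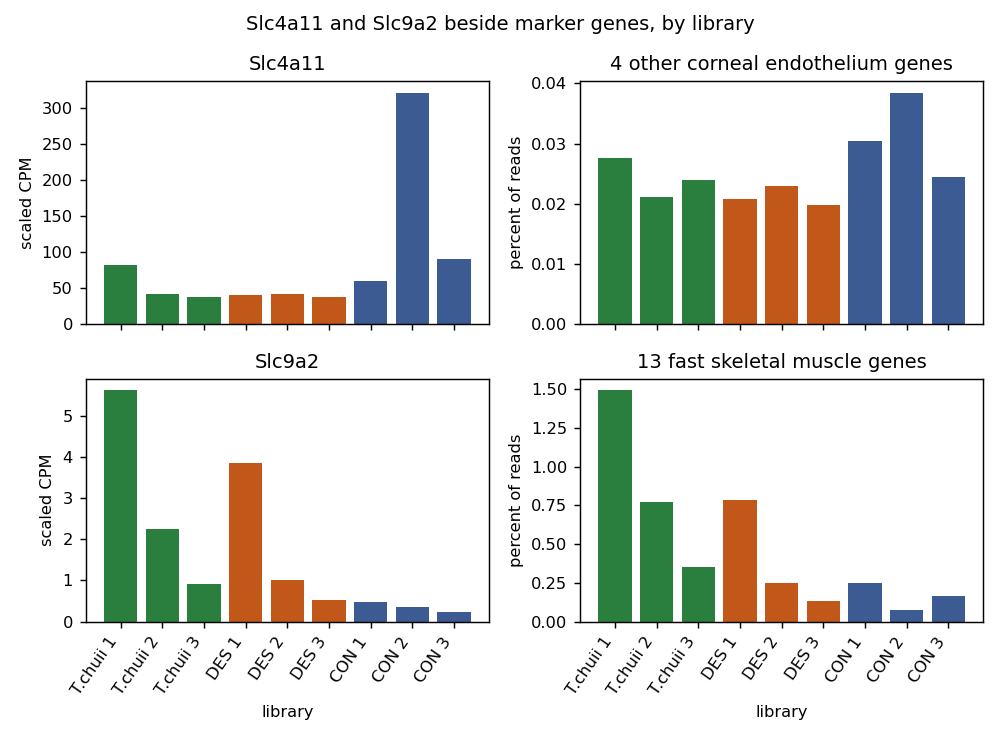
Bars give each library's scaled CPM of Slc4a11 and of Slc9a2, and the percent of reads in the 4 other corneal endothelium markers and in 13 fast skeletal muscle genes, for T.chuii (green), DES (orange) and CON (blue). CON 2 is the tallest bar for both Slc4a11 (322 CPM) and the endothelium markers (0.0385%), and T.chuii 1 is the tallest for both Slc9a2 (5.62 CPM) and muscle genes (1.49%).

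Among exchangers of internal membranes, Slc9a8 and Slc9a9, of the Golgi and of endosomes, ranged over 14.6 to 25.6 CPM and 8.58 to 12.2 CPM. Slc9a7, the Golgi NHE7, spread more widely, over 13.9 to 35.7 CPM. The scaffold NHERF1, which ties exchangers to the actin linker ezrin, is encoded by Slc9a3r1 and had 116, 57.1 and 70.4 CPM in the T.chuii libraries, 95.2, 77.9 and 81.0 in DES and 72.3, 162 and 81.8 in CON. NHERF2, encoded by Slc9a3r2, had 48.0, 41.7 and 25.6 CPM in the T.chuii libraries, 51.6, 29.4 and 23.2 in DES and 34.3, 59.8 and 29.5 in CON. For both scaffolds, the cornea-rich library was the highest of its group in all 3 groups.

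The chloride loader NKCC1, encoded by Slc12a2, is the basolateral chloride entry step of secretory epithelia. Slc12a2 had 138, 67.5 and 96.0 CPM in the T.chuii libraries, 164, 91.2 and 97.3 in DES and 104, 219.7 and 93.2 in CON. The extruder KCC2, encoded by Slc12a5 and found in mature neurons, had 17.7, 68.3 and 71.7 CPM in the T.chuii libraries, 35.5, 63.5 and 45.1 in DES and 69.0, 24.7 and 62.2 in CON. Slc12a2 was highest and Slc12a5 lowest in the cornea-rich library of each group. On the FPKM scale, the ratio of Slc12a2 to Slc12a5 was 6.97, 0.867 and 1.20 in the T.chuii libraries, 4.14, 1.28 and 1.90 in DES and 1.37, 8.002 and 1.32 in CON. The ratio was above 4 in the 3 cornea-rich libraries and at most 1.90 in the other 6, and the ranges of the groups overlapped.

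Slc12a4 encodes the widely expressed extruder KCC1 and had 17.5, 14.3 and 10.5 CPM in the T.chuii libraries, 18.0, 11.2 and 8.25 in DES and 14.4, 23.0 and 11.5 in CON. The cornea-rich library was the highest of each group. Slc12a7, encoding KCC4, ranged over 4.73 to 11.1 CPM, and Slc12a9 over 7.63 to 12.6 CPM. Slc12a8 had 0.933, 0.631 and 0.717 CPM in the T.chuii libraries, 0.281, 0.355 and 0.519 in DES and 0.878, 0.398 and 0.841 in CON. All 3 T.chuii libraries lay above all 3 DES libraries at less than 1 CPM, while CON overlapped both. The 3 adipocyte markers that were found held 0.142%, 0.0338% and 0.00886% in the T.chuii libraries, 0.00372%, 0.00131% and 0.00399% in DES and 0.00318%, 0.000420% and 0.00202% in CON. In these markers T.chuii lay above DES as well, but unlike Slc12a8 they also had T.chuii above CON. Their part in the Slc12a8 difference was not tested. Its log2 fold change was 1.00 ± 0.43 for T.chuii against DES (limma-voom, unadjusted p = 0.0408, adjusted p = 1.0), and leaving out the cornea-rich libraries gave 0.67.

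In the Slc26a family, pendrin, an exchanger of chloride with bicarbonate or iodide, is encoded by Slc26a4, which had 14.7, 12.7 and 7.29 CPM in the T.chuii libraries, 22.2, 6.33 and 9.68 in DES and 7.59, 19.4 and 5.92 in CON. T.chuii 1, DES 1 and CON 2 were the 3 highest libraries. Slc26a6, another chloride-bicarbonate exchanger, had 4.78, 7.58 and 6.89 CPM in the T.chuii libraries, 7.04, 7.33 and 6.23 in DES and 7.40, 7.95 and 7.06 in CON. Slc26a7, an anion carrier of kidney, stomach and thyroid, had 35.1, 19.7 and 30.6 CPM in the T.chuii libraries, 20.7, 22.4 and 34.5 in DES and 32.9, 32.8 and 27.0 in CON. Neither separated any pair of groups. The sulfate transporter gene Slc26a2, needed for cartilage proteoglycans, had 12.2, 24.3 and 27.1 CPM in the T.chuii libraries, 17.1, 29.6 and 20.7 in DES and 23.5, 18.0 and 22.5 in CON, with the cornea-rich library lowest in each group.

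The sulfate and oxalate exchanger gene Slc26a1 had 0.676, 0.806 and 0.528 CPM in the T.chuii libraries, 0.582, 0.169 and 0.219 in DES and 0.427, 0.641 and 0.538 in CON. T.chuii and DES overlapped through DES 1, and the log2 fold change of T.chuii against DES was 1.21 ± 0.47 (limma-voom, unadjusted p = 0.0270, adjusted p = 1.0). Slc26a10 had 4.83, 2.29 and 0.849 CPM in the T.chuii libraries, 3.93, 1.34 and 0.519 in DES and 0.949, 1.30 and 0.975 in CON. Its 3 highest libraries were T.chuii 1, DES 1 and T.chuii 2, the same 3 as for Slc9a2 and for muscle genes. The match was partial, as T.chuii 3 had a larger muscle share than any CON library but less Slc26a10 than each of them. The part of muscle was not tested. Slc26a8, known from testis, ranged over 1.46 to 3.08 CPM, the chloride carrier gene Slc26a9 over 0.257 to 1.30 CPM and Slc26a11 over 8.14 to 14.7 CPM. Several members overlap another protein-coding gene in the annotation: Slc26a1 with Idua, Slc26a10 with B4galnt1, Slc26a11 with Sgsh, Slc9a5 with Plekhg4 and Slc9a7 with Chst7. How the counting treated strand was not stated, and the division of reads within these pairs is uncertain.

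**Figure D3:**
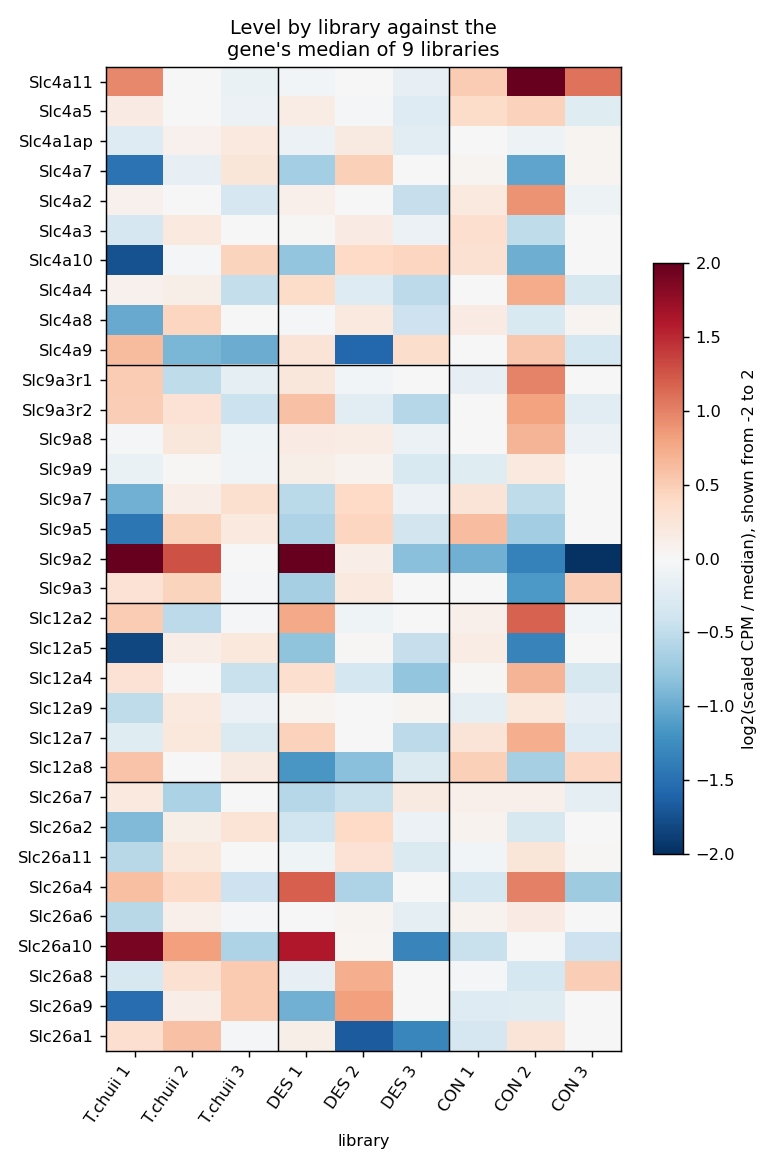
Heat map of log2 scaled CPM relative to each member's median over the 9 libraries (red above, blue below, colours limited to -2 to 2), with libraries in columns and 33 of the 36 members in rows grouped by family. T.chuii 1, DES 1 and CON 2 are blue for Slc4a7, Slc4a10 and Slc12a5 and red for Slc12a2 and Slc26a4, and Slc4a11 is darkest in CON 2.

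Across the families, the 3 cornea-rich libraries lay above the other 6 for 5 of 36 members: Slc12a2, Slc12a4, Slc26a4, Slc9a3r1 and Slc9a3r2. Of all 21287 genes tested, 13.3% did so. They lay below the other 6 for 7 members, Slc4a7, Slc4a10, Slc9a5, Slc9a7, Slc12a5, Slc26a2 and Slc26a8, against 13.6% of all genes. Mean levels of Slc4a10, Slc12a5 and Slc4a7 in the cornea-rich libraries were 0.384, 0.410 and 0.447 times those in the other 6, and those of Slc26a4 and Slc12a2 were 2.27 and 1.90 times. Within each group, the cornea-rich library was the highest for 8 members, against 20.3% of all genes, and the lowest for 7, against 17.4%. The 8 were the 5 above with Slc4a2, Slc4a5 and Slc26a10, and the 7 were those named before. The members' shares are near those of all genes, and since the libraries were set apart by corneal and rod genes, no test was made.

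**Figure D4:**
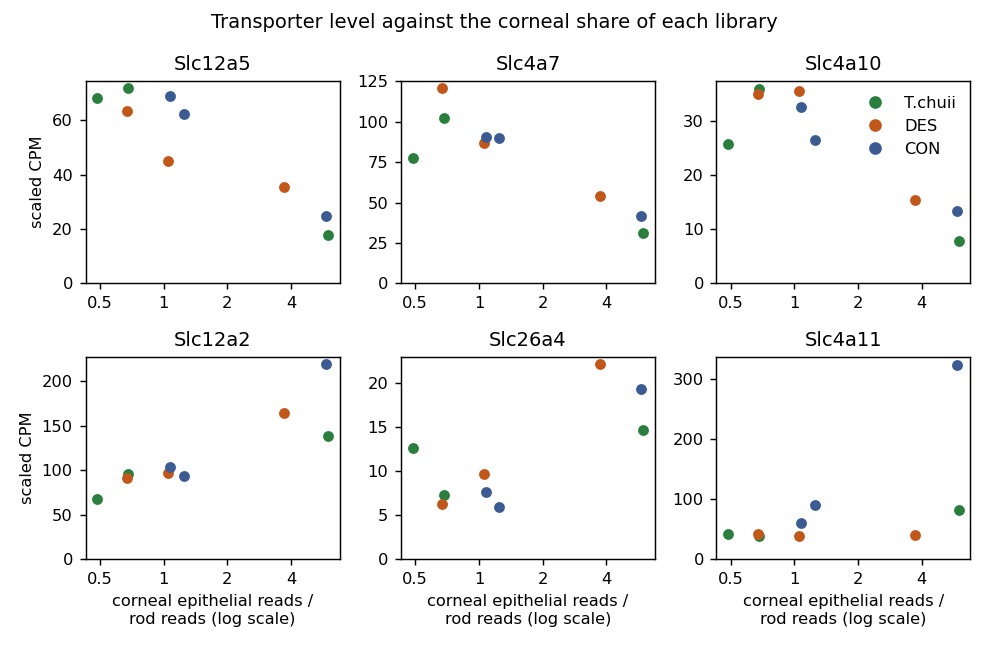
Scaled CPM of 6 members in each T.chuii (green), DES (orange) and CON (blue) library against the ratio of corneal epithelial to rod reads on a log scale. Slc12a5, Slc4a7 and Slc4a10 are lowest and Slc12a2 and Slc26a4 highest in the 3 libraries with ratios of 3.72 to 5.98, while Slc4a11 in DES 1 stays at 40.5 CPM.

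Promoter sequence from RefSeq (GRCm38.p6, the assembly of mm10) is shown for 2 members that were low in the cornea-rich libraries and 1 that was high there, up to the base before the gene start and on the plus strand. A promoter window was found for 26 of the 36 members, and the motif shares below are over the 250 bases before each listed transcript start, of which a gene may have several. The Slc4a10 stretch is shorter, at 207 bases, because it stops before the outermost start of the gene. Capitals mark the AP-1 motif TGANTCA or the GC box GGGCGG, searched on both strands, so that CCGCCC is a GC box of the minus strand. These motifs share no overlap in the 3 windows. The regions are chr2:164960596-164960845 for Slc12a5, chr2:62046265-62046471 for Slc4a10 and chr11:115163091-115163340 for Slc9a3r1.
Slc12a5: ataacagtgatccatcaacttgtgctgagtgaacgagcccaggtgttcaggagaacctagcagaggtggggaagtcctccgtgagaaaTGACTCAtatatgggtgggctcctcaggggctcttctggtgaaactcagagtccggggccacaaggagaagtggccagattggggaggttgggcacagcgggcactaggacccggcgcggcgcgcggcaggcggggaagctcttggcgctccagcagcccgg
Slc4a10: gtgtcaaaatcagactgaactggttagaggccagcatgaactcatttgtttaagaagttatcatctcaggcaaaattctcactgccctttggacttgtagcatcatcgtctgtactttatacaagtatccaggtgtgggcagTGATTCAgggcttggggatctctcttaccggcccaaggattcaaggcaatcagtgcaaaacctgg
Slc9a3r1: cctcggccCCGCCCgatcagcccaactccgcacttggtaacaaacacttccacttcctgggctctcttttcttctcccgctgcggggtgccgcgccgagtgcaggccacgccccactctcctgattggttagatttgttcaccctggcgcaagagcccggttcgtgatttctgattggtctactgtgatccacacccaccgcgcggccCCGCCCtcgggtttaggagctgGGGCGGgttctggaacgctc
The first 2 hold 1 AP-1 motif each and the third holds 3 GC boxes. For motif shares, the background was all genes with a promoter window, with no limit on gene type or reads. Members are protein-coding and passed the low-count filter, so the sets compared are unlike. Over all starts listed for the members, 5 of 26 genes held TGANTCA, against 7.82% of 27025 genes, and 14 held GGGCGG, against 35.4%. The 5 were Slc12a5, Slc4a10, Slc26a1, Slc9a9 and Slc9a3r2, the last of which was high in the cornea-rich libraries. GGGCGG was held by Slc12a5, Slc9a5 and Slc9a7, low there, and by Slc12a4, Slc9a3r1 and Slc9a3r2, high there. Over all listed starts, each of these motifs was thus held by low and by high members. The difference between the stretches shown does not set low members apart from high ones. The homeodomain core TAATCC, read by the photoreceptor factors Crx and Otx, was in 3 of the 26, Slc26a1, Slc26a9 and Slc9a3, against 7.21% of genes. A match is a run of letters and not a shown binding site.

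In T.chuii against DES, 0 of 36 members were called at an adjusted p under 0.05, as were 0% of the 21287 genes tested (limma-voom). An unadjusted p under 0.05 was found for 2 members, Slc26a1 and Slc12a8, and for 1.11% of all genes. Groups did not overlap for 1 member, Slc12a8, and for 4.69% of all genes. The members' median log2 fold change was -0.04, against -0.03 over all genes, with 13 positive and 23 negative. Of all genes, 45.3% were positive. The lowest were Slc4a10 at -0.43 ± 0.56 and Slc4a7 at -0.40 ± 0.48, and both became positive without T.chuii 1, at 0.19 and 0.10.

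In DES against CON, 0 members and 0% of all genes were called. An unadjusted p under 0.05 was found for 2 members, Slc4a11 and Slc9a2, and for 1.11% of all genes. Groups did not overlap for the same 2 members and for 3.64% of all genes. The median log2 fold change was -0.12 for the members and -0.02 for all genes, with 12 members positive and 24 negative, while 46.5% of all genes were positive.

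In T.chuii against CON, 0 members and 0% of all genes were called, while an unadjusted p under 0.05 was found for 2 members, again Slc9a2 and Slc4a11, and for 4.27% of all genes. Groups did not overlap for Slc9a2 alone, against 8.45% of all genes. Both injected groups joined against CON gave 0 members and 0% of genes called, 2 members and 2.84% of genes at an unadjusted p under 0.05, and 1 member and 1.14% of genes without overlap. Those members were the same, with 2.29 ± 0.75 for Slc9a2 and -1.40 ± 0.46 for Slc4a11. In these 2 comparisons 9 members were positive and 27 negative, with medians of -0.15 and -0.14 against -0.05 and -0.04 over all genes. Positive changes made up 44.0% and 44.4% of all genes. The comparisons share libraries, so the recurrence of the same members is not independent. limma on log2(FPKM + 0.1) also called 0 genes in each comparison, with 267, 294, 1083 and 754 genes at an unadjusted p under 0.05 in T.chuii against DES, DES against CON, T.chuii against CON and both injected groups against CON.

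The intervals show which sizes of change remain possible. Between 32 and 33 of the 36 members had a log2 fold change within 0.5 of 0 in each comparison, and the median half-width of the 95% interval was 0.796 for T.chuii against DES, 0.779 for DES against CON and 0.777 for T.chuii against CON. The whole interval lay within 1 log2 unit of 0 for 22, 19 and 19 members in these 3 comparisons, so for the others a 2-fold difference was not excluded by these libraries.

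**Figure D5:**
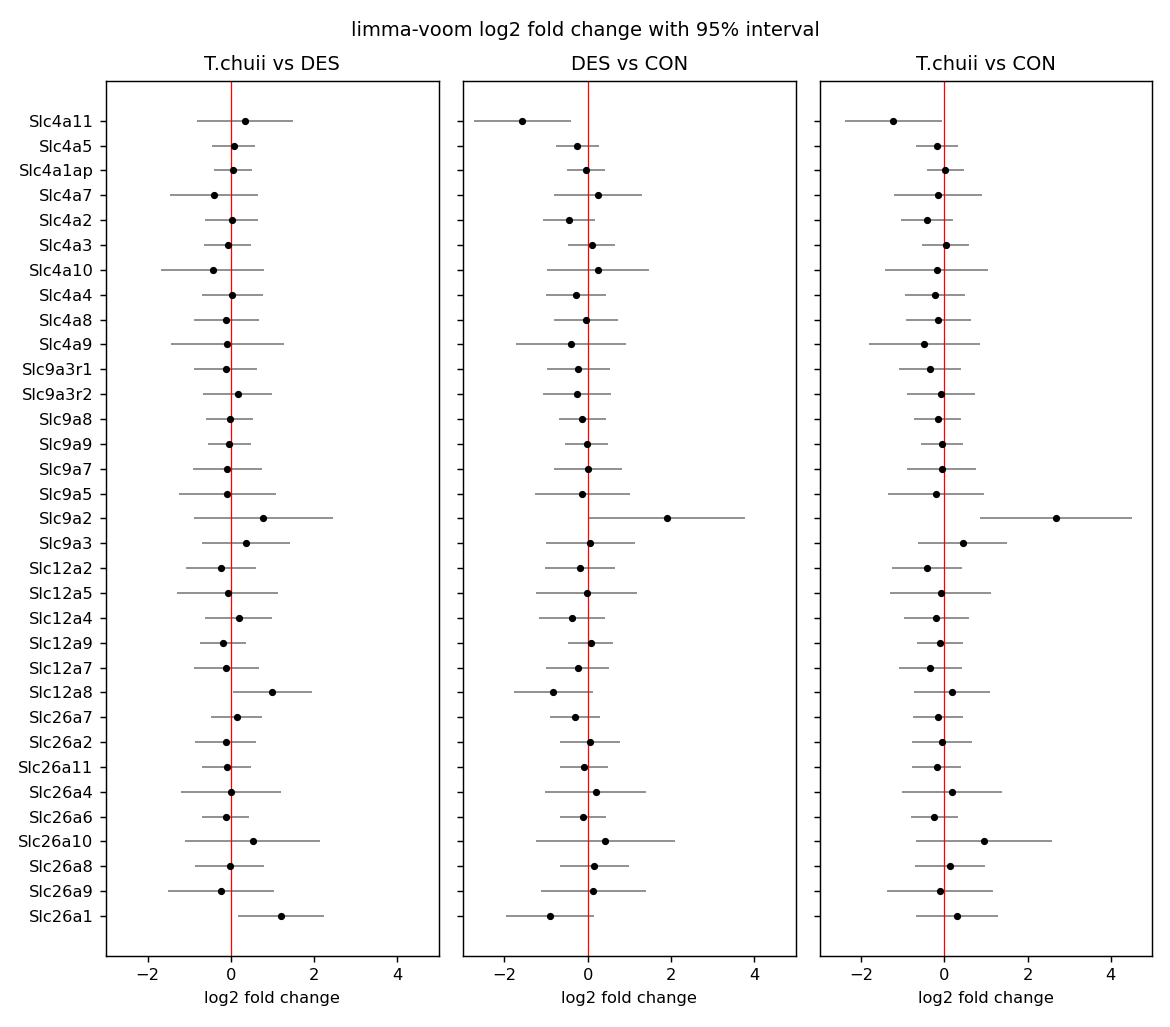
limma-voom log2 fold change (points) with its 95% interval (lines) for 33 of the 36 members in T.chuii against DES, DES against CON and T.chuii against CON. Most points lie within 0.5 of the red line at 0, while in T.chuii and DES against CON Slc9a2 lies at 2.68 and 1.90 and Slc4a11 at -1.23 and -1.57.

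Genes that work with these carriers gave 0 calls as well. Carbonic anhydrases, which make bicarbonate and protons from carbon dioxide, were represented by 14 genes, of which 0 were called and 1 had an unadjusted p under 0.05 in T.chuii against DES and 0 in the other comparisons. That gene was Car3, known from muscle and fat, with 1166, 259.9 and 151 CPM in the T.chuii libraries, 72.8, 71.2 and 118 in DES and 152, 225 and 189 in CON. Its log2 fold change was 2.08 ± 0.58 (limma-voom, unadjusted p = 0.00475, adjusted p = 1.0). T.chuii 1 stood far above the rest and also had the largest share of muscle and of adipocyte reads, and the part of these tissues was not tested. Car4, a membrane-bound form, had the smallest p of the list in T.chuii against CON, at a log2 fold change of 1.16 ± 0.65 (adjusted p = 0.982).

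Of 17 chloride channel genes, 0 were called. An unadjusted p under 0.05 was found for 0 of them in T.chuii against DES and for 1 in each other comparison. In DES against CON, and for both injected groups against CON, that gene was not Clcn1, and its change was negative. In T.chuii against CON the smallest p was that of the muscle channel gene Clcn1, with 9.14, 5.09 and 2.76 CPM in the T.chuii libraries, 7.58, 2.69 and 0.929 in DES and 2.37, 1.13 and 1.28 in CON. Clcn1 was highest in the 3 libraries richest in muscle genes. Of 9 genes of the WNK pathway, whose kinases activate NKCC1 and inhibit the KCC extruders, 0 were called and 0 had an unadjusted p under 0.05 in any comparison. Their smallest p belonged to Wnk4 in T.chuii against CON, at -0.58 ± 0.36, and in DES against CON, at -0.44 ± 0.36, and to Wnk2 in T.chuii against DES, at 0.37 ± 0.34. Among 7 regulators of exchangers and cotransporters and 6 genes of proton-linked lactate transport, 0 were called and 0 had an unadjusted p under 0.05. The regulators with the smallest p were Chp2 in T.chuii against DES, at 0.59 ± 0.44, Ahcyl2 in DES against CON, at -0.26 ± 0.22, and Chp1 in T.chuii against CON, at -0.30 ± 0.25. In T.chuii against CON, all 6 lactate transport genes had positive changes, with a median of 0.19, and none passed the test. Emb, a partner protein of the lactate carriers, had the smallest p there, at 0.29 ± 0.20, and Slc16a8, the lactate carrier of pigment epithelium, in T.chuii against DES, at 0.56 ± 0.34.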

How the data were processed

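Per the labels' protocols, eyeball RNA went into a stranded mRNA kit. StringTie 2.1.3b, HISAT2 2.1.0, Bowtie2 2.3.4.1, Trimmomatic 0.38, FastQC 0.11.7 and the build mm10 are named, per the submitters' processing notes. For each gene and library the authors deposited a read count and an FPKM value, per the file headers. Rows have a varying number of cells, so both were read from the right end. All counts were whole numbers. The lowest count in any library was 1, so a gene absent from a library was not seen.

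Library factors were trimmed means of M-values from own code. Genes needed, in at least 3 libraries, the CPM that 10 reads make in the median library, and 15 reads in total, which 21287 genes met. limma-voom (limma 3.58.1, R 4.3.3) was run on the counts of all 9 libraries in 1 fit with 3 group means. Tests were two-sided, with Benjamini-Hochberg adjustment over all genes at 0.05. The code was also run on simulated counts with independent genes, a fixed spread and no tissue differences between libraries. That run checked the code and does not show power or error rates for these libraries. Changes are log2 fold changes ± SE. Groups came from the sample titles. The closest pair of libraries differed by a chi-square of 32.7 per degree of freedom, so none was a repeat deposit. Counting error is small beside the spread between libraries except for members below about 1 CPM.

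Libraries with the same number in the titles deviated together between T.chuii and DES (r across genes 0.558, 0.342 and 0.170) but not in every pair with CON (r from -0.371 to 0.293), and the numbers in the file headers are other numbers. The labels do not pair animals, and libraries with different numbers were not compared in this way. Members, gene lists, the cornea-rich libraries and the alternatives were chosen with earlier results of these data known. Values by library are given for the 3 members with the smallest p in each direction of each comparison, the 12 with the highest mean FPKM and those with a known role in the eye, except that a few genes, 3 members among them, are not reported here by name. Coordinates and promoters are from RefSeq (GRCm38.p6). Other scalings, filters, units, library weights, a replicate block and the omission of libraries were tried. Further tools were pandas 2.3.3 and matplotlib 3.10.9 under Python 3.11.15.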

Additional observations from a re-analysis of the deposited data

How the results depend on the processing

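No member was called under any setting. The smallest adjusted p of a member was 0.162 with sample quality weights and 0.169 with the replicate block, both for Slc9a2 in T.chuii against CON. The replicate block called 0 members and 0 genes in every comparison, and with the T.chuii and DES libraries alone, a setting chosen after seeing the data, it called 2 genes, of which 0 were members. Over all genes, other settings called 0 to 25 genes in a comparison, 0 of them members. For the 24 pairs of member and comparison with the smallest p in each direction, 463 of 474 changes under other settings kept their sign and 11 did not. Without T.chuii 1, T.chuii against DES became 0.19 for Slc4a10 and 0.10 for Slc4a7, and leaving out each library in turn gave -0.89 to 0.19 and -0.75 to 0.10. DES against CON ranged over -0.30 to 1.08 for Slc26a10, negative without DES 1, and over -0.13 to 0.55 for Slc4a7, negative without DES 2 (-0.026) or CON 2. Slc9a3, which rests on few reads, ranged over -0.015 to 0.79 in T.chuii against CON and -0.20 to 0.60 for both injected groups against CON, negative without CON 2 in both. Without T.chuii 1, DES 1 and CON 2 together, Slc26a10 in DES against CON was at -0.12, and Slc9a3 at -0.050 in T.chuii against CON and -0.094 for both injected groups against CON. Quality weights gave -0.14 for Slc9a3 in the last comparison. The number of members whose groups did not overlap was 1 on FPKM and 1 with library totals in DES against CON, where it had been 2, Slc9a2 being the one lost. On FPKM it was 3 in T.chuii against CON, Slc9a2 and Slc4a2 among them, where it had been 1. For both injected groups against CON it was 0 on FPKM and 0 with library totals, where it had been 1, again Slc9a2. The share of all genes without overlap was not computed in these units, so these counts are no result about the members. Outside the 24 pairs, T.chuii against DES turned negative for Slc26a10 without T.chuii 1 (-0.064) or DES 3 (-0.12) and for Slc4a11 without T.chuii 1 (-0.0021), and T.chuii against CON did so for Slc12a8 with quality weights (-0.27), without CON 2 (-0.19) and without the 3 libraries (-0.34). The cause of these shifts was not tested. Depth limits the members below 1 CPM most.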
